A study of Mus musculus with 12 samples.

Results

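Slc25a37, Slc25a28, Iscu, Nfs1, Glrx5, Hscb, Abcb8 and Cisd1 are 8 genes through which mitochondria take up iron and handle iron-sulfur (Fe-S) clusters. They were followed by RNAseq in the livers of mice with acute iron overload. The 8 genes were chosen by name, each symbol matched 1 identifier among the 55414 Ensembl genes of the count table, and all 8 passed the filter on low counts that left 13857 genes for testing. The 12 mice, 3 in each of 4 groups, were female C57BL/6J mice aged 8 to 12 weeks, and every mouse received 2 i.p. injections. NaCl/PBS mice received saline and 6 h later PBS, NaCl/DEX mice received saline and then 10 mg/kg dexamethasone (DEX), a synthetic glucocorticoid, FeSO4/PBS mice received 300 mg/kg FeSO4 and then PBS, and FeSO4/DEX mice received both FeSO4 and DEX. Livers were taken 2 h after the second injection, 8 h after the first, so that all values come from whole liver at a single time point.

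In mitochondria, Fe-S clusters are made from iron, which mitoferrins carry across the inner membrane, and from sulfur, which a desulfurase takes from cysteine. Both are joined on a scaffold protein, and a chaperone system then hands the cluster to carriers that deliver it to enzymes of respiration, the citric acid cycle and other pathways. In the liver, which stores much of the iron of the body, these steps also feed the cytosolic proteins that sense iron through an Fe-S cluster. Slc25a37 encodes mitoferrin 1, known from erythroid cells, and Slc25a28 its paralog mitoferrin 2, which is expressed in many tissues. Nfs1 encodes the cysteine desulfurase, Iscu the scaffold, Hscb the J-type co-chaperone that acts on the loaded scaffold, and Glrx5 the glutaredoxin that carries the cluster onwards. Abcb8 encodes a transporter of the inner mitochondrial membrane that has been linked to iron export, and Cisd1 encodes mitoNEET, an Fe-S protein of the outer membrane.

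The 250 bases upstream of the start of the canonical transcript are shown for Slc25a28, Glrx5 and Cisd1, the 3 genes called higher after FeSO4 in both PBS and DEX mice. They are read 5′ to 3′ on the strand of the gene from GRCm39, the build to which the reads were mapped, and all letters are in lower case because none matched a searched motif.
Slc25a28, chr19:43664450-43664699, minus strand: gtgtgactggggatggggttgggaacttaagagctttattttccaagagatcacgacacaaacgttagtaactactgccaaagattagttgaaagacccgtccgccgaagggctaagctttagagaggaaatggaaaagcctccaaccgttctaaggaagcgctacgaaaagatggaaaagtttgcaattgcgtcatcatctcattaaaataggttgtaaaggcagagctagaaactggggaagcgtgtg
Glrx5, chr12:104998695-104998944, plus strand: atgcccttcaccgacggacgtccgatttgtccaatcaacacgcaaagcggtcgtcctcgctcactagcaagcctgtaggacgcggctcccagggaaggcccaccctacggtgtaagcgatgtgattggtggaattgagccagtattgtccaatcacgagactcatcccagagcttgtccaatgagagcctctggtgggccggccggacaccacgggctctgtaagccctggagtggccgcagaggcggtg
Cisd1, chr10:71180785-71181034, minus strand: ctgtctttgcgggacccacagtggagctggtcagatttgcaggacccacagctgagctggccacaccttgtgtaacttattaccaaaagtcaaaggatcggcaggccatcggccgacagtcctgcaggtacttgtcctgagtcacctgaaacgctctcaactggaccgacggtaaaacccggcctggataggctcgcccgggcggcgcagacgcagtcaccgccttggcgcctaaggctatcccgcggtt

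Both strands of these windows were searched for 4 motifs: the core of the antioxidant response element (ARE, TGACNNNGC), the E-box CACGTG, the core of the nuclear respiratory factor 1 motif (GCGCANGCG) and the glucocorticoid response element (GRE). The windows of Slc25a28, Glrx5 and Cisd1 held none of the 4 motifs. Of 13818 windows of tested genes, 10.4% held an ARE core, 7.6% an E-box, 7.33% a nuclear respiratory factor 1 core and 0.109% a GRE. The lack of a match says only that these letters are not in the window.

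The libraries held between 16335651 and 23827340 reads counted on genes, with a median of 19602514. Pairs of libraries of 1 group differed by a chi-square per gene of 16.8 to 33.9 in 10 pairs and of 64.9 and 81.4 in the 2 pairs with FeSO4/PBS mouse 1, which therefore stood apart from the rest of its group, and values without it are given beside the results. The sum of 7 hepatocyte markers was between 2150000 and 3220000 normalized counts per library, and no marker of that list was at 0. Several marker lists of other cells moved with FeSO4. After FeSO4 in PBS mice, 8 of 9 macrophage markers were lower, 5 of 6 tested neutrophil markers higher and 3 of 6 tested erythroid markers higher, and in DEX mice the counts were 5, 6 and 4. In PBS mice 4 of 7 hepatocyte markers were also higher, as were 2 of 5 cholangiocyte markers, while 2 of 7 endothelial markers were higher and 3 lower, 2 of 6 stellate cell markers higher and 1 lower, and 1 of 5 tested lymphocyte markers lower. Among all tested genes 27.2% were higher and 27.3% lower in PBS mice, and 22.4% and 20.9% in DEX mice. The counts of these short lists are to be read beside those shares. In bulk liver, fewer cells of a type and less RNA per cell cannot be told apart. The labels number the replicates without naming the animals, so that p-values measure the spread between these libraries.

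FeSO4 changed 5 of the 8 genes in PBS mice. Against NaCl/PBS mice, Slc25a28, Glrx5 and Cisd1 were higher and Slc25a37 and Hscb lower, by edgeR's quasi-likelihood test with a false discovery rate (FDR, Benjamini-Hochberg over all tested genes) of 0.05 or less. At the same threshold 27.2% of all tested genes were higher and 27.3% lower, so that a change as such was common in these livers. The median log2 fold change (LFC) of the 8 genes was 0.22, beside -0.02 over all tested genes. In DEX mice, FeSO4/DEX against NaCl/DEX, Slc25a28, Glrx5 and Cisd1 were again higher and Slc25a37 was again lower. This comparison shares no mouse with the first, but both tests use the spread estimated from all 12 libraries. There, 22.4% of all genes were higher and 20.9% lower, and the median LFC was 0.44 for the 8 genes and 0.01 for all. With libraries scaled by their size alone, which moved the median LFC of all genes to -0.34 in PBS and -0.18 in DEX mice, 2 members were higher and 3 lower in PBS mice and 3 were higher and 2 lower in DEX mice. That scaling also lowered the share of higher genes among all called genes from 49.9% to 28.2% in PBS mice and from 51.7% to 34.2% in DEX mice. Without FeSO4/PBS mouse 1, 3 members were higher and 2 lower in PBS mice, and 4 were higher, with Iscu added, and 1 lower in DEX mice. The shares of all tested genes in that fit are not given here.

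**Figure D1:**
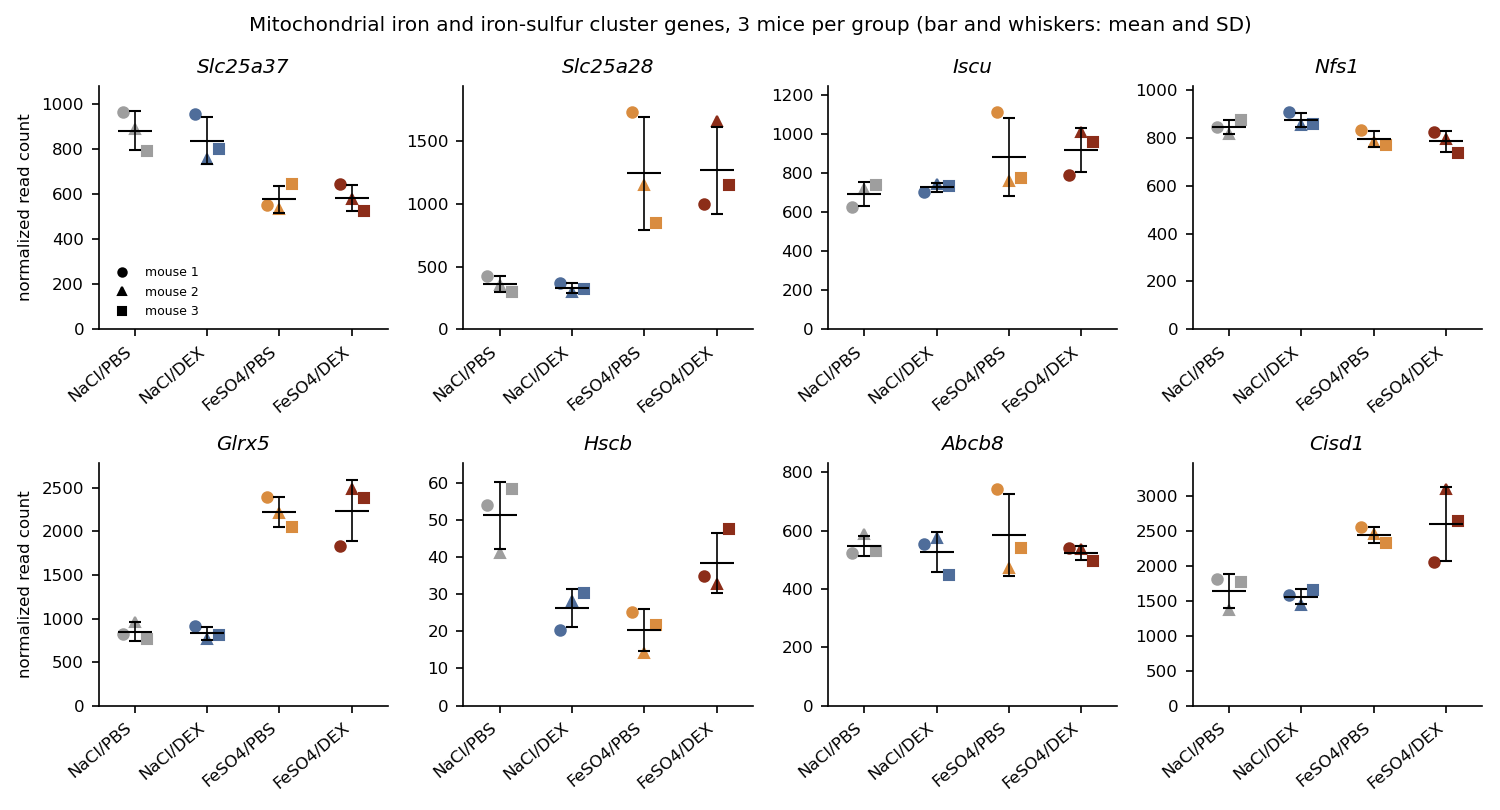
Normalized read counts (y axis, from 0) of the 8 genes in the 3 mice of each of the 4 groups (x axis), with a symbol per mouse and a bar with whiskers for the mean and SD. Slc25a28 and Glrx5 lay higher in all 6 FeSO4 mice than in all 6 NaCl mice, Slc25a37 lay lower, and Hscb took a different order of groups.

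Slc25a28, the widely expressed mitoferrin, had the largest LFC of the 8 genes in both FeSO4 comparisons. The gene (ENSMUSG00000040414) lies on the minus strand of chromosome 19 from 43650480 to 43664460 in GRCm39. It had 424, 354 and 297 normalized counts in NaCl/PBS mice 1, 2 and 3, and 1735, 1151 and 846 in FeSO4/PBS mice. In NaCl/DEX mice there were 372, 296 and 322, and in FeSO4/DEX mice 998, 1663 and 1151. The lowest FeSO4 mouse was above the highest NaCl mouse in both comparisons, while the FeSO4 mice were spread more widely, with a coefficient of variation of 36.3% in FeSO4/PBS against 17.8% in NaCl/PBS mice. Fitted LFCs were 1.79 (SE 0.25, edgeR FDR 3.6e-05) in PBS mice, a 3.47-fold rise, and 1.94 (SE 0.25, edgeR FDR 3e-05) in DEX mice, a 3.84-fold rise. FeSO4/PBS mouse 1 was the highest of its group, and without that mouse the LFC was 1.48 (SE 0.2, edgeR FDR 4.74e-05). The antisense gene BC037704 shares 1135 exonic bases with Slc25a28 and had 0 to 11 reads per library. If the counts ignored the strand, reads within these shared bases cannot be assigned to 1 of both genes and may have gone uncounted.

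Slc25a37, the other mitoferrin, moved the opposite way. The gene (ENSMUSG00000034248) lies on the minus strand of chromosome 14 from 69479297 to 69522561. Its normalized counts fell from 964, 887 and 793 in NaCl/PBS mice to 552, 532 and 643 in FeSO4/PBS mice. With DEX as the second injection they were 955, 755 and 799 after NaCl and 644, 579 and 527 after FeSO4. No FeSO4 mouse reached the lowest NaCl mouse of its comparison. The LFC was -0.62 (SE 0.13, edgeR FDR 0.00098) in PBS mice, 1.53-fold lower, -0.58 without FeSO4/PBS mouse 1, and -0.52 (SE 0.13, edgeR FDR 0.0046) in DEX mice. In all, 382 bases, 9.15% of the canonical mRNA, are identical to bases of Gm16867, which had 0 to 11 reads per library. On the opposite strand, the antisense gene Gm31748 shares 381 exonic bases and had 0 reads, and Gm63459, which shares 1422, is not in the count table. Reads in the bases shared with Gm31748 may likewise have gone uncounted if the counts ignored the strand.

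Macrophage and erythroid markers moved beside Slc25a37. The summed level of the 9 macrophage markers was between 9150 and 10700 normalized counts in NaCl/PBS, 8000 and 9540 in NaCl/DEX, 4990 and 5800 in FeSO4/PBS and 4240 and 6810 in FeSO4/DEX mice, lower after FeSO4 as Slc25a37 was. The 10 erythroid markers in the table summed to between 1680 and 3830 in NaCl/PBS and 2920 and 5610 in FeSO4/PBS mice, and to between 2860 and 3720 in NaCl/DEX and 4020 and 8970 in FeSO4/DEX mice, in the opposite direction to Slc25a37. Of the defining erythroid markers, Gata1 was at 0 in all mice of 3 groups and Epb42 in all mice of 1 group. The part of either cell type in the Slc25a37 counts was not tested.

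The ratio of both mitoferrins within a library does not depend on the scaling between libraries. Per Slc25a28 read there were 2.27, 2.5 and 2.67 Slc25a37 reads in NaCl/PBS mice, and 2.56, 2.55 and 2.48 in NaCl/DEX mice. After FeSO4 the ratios were 0.318, 0.462 and 0.76 with PBS and 0.645, 0.348 and 0.458 with DEX. All 6 FeSO4 mice thus lay below all 6 NaCl mice. The mean log2 ratio was 2.4 lower after FeSO4, 5.27-fold, with a two-sided exact permutation p of 0.005 within the PBS and DEX strata, the smallest p that 400 arrangements can give. Without FeSO4/PBS mouse 1 the difference was -2.25.

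**Figure D2:**
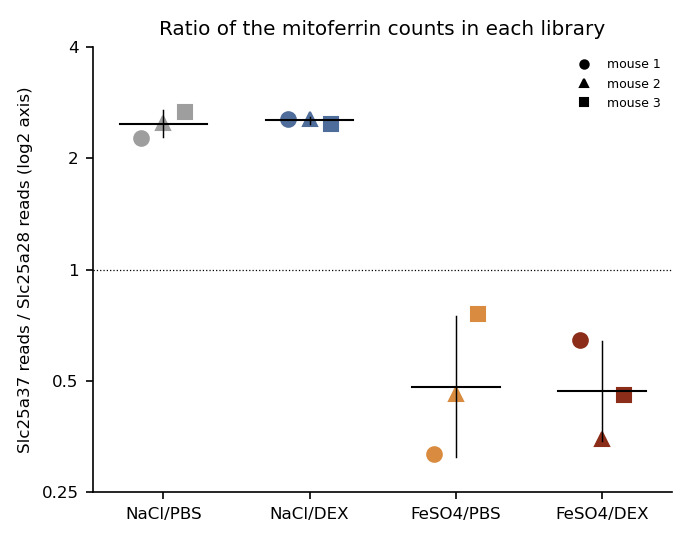
Reads of Slc25a37 divided by reads of Slc25a28 in each library (y axis, log2 scale), by group (x axis). Points are mice, and lines give the geometric mean and 1 SD of the log2 ratio, which was 2.48 and 2.53 after NaCl and 0.482 and 0.469 after FeSO4.

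Of the genes of the assembly machinery, neither the desulfurase nor the scaffold gene was called. Nfs1 (ENSMUSG00000027618, minus strand of chromosome 2 from 155965556 to 155986374) varied little between mice, with a coefficient of variation of 3.34% to 5.65% within groups. It had 845, 817 and 875 normalized counts in NaCl/PBS and 833, 785 and 772 in FeSO4/PBS mice. The LFC was -0.09 (95% interval -0.28 to 0.11, edgeR FDR 0.44), the groups overlapped, and without FeSO4/PBS mouse 1 the LFC was -0.12. In DEX mice the counts were 909, 857 and 861 after NaCl and 825, 798 and 738 after FeSO4, which did not overlap, with an LFC of -0.15 (95% interval -0.35 to 0.04, edgeR FDR 0.19). With libraries scaled by size alone, Nfs1 was called lower, with an LFC of -0.41 (edgeR FDR 0.00238) in PBS and -0.35 (edgeR FDR 0.00907) in DEX mice. Nfs1 shares 431 exonic bases with Romo1 on the opposite strand, which had 376 to 683 reads per library. Reads within these shared bases cannot be assigned to 1 of both genes if the counts ignored the strand. On the same strand, Gm28036 shares 256 exonic bases with Nfs1 and had 0 reads. Reads within those bases cannot be assigned to 1 of both genes under any strand setting, so that the 0 reads say nothing about them.

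Iscu (ENSMUSG00000025825) lies on the plus strand of chromosome 5 from 113910776 to 113917545. It had 624, 716 and 741 normalized counts in NaCl/PBS and 1112, 758 and 774 in FeSO4/PBS mice, and 699.9, 745 and 734 in NaCl/DEX and 791, 1007 and 958 in FeSO4/DEX mice. All FeSO4 mice lay above all NaCl mice of their comparison, by a small margin for FeSO4/PBS mice 2 and 3. The LFC of 0.35 (SE 0.15) in PBS mice had an edgeR FDR of 0.059, and that of 0.34 (SE 0.15) in DEX mice an edgeR FDR of 0.079. The call depended on the processing, since Iscu passed in PBS mice with DESeq2 (FDR 0.0425), with DESeq2's size factors in edgeR (FDR 0.0442) and without FeSO4/PBS mouse 2 (FDR 0.0275) or 3 (FDR 0.0352), whereas without FeSO4/PBS mouse 1 the LFC was 0.15 (edgeR FDR 0.298). In DEX mice it passed without FeSO4/PBS mouse 1 (FDR 0.0291), without FeSO4/DEX mouse 1 (FDR 0.0441) and with the 6 libraries of that comparison alone (FDR 0.033). Of the canonical mRNA, 25.7% is identical to bases of Gm16437, which had 0 to 3 reads per library.

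Glrx5, the cluster carrier, had the smallest FDR of the 8 genes in both FeSO4 comparisons. The gene (ENSMUSG00000021102) lies on the plus strand of chromosome 12 from 104998939 to 105009165. NaCl/PBS mice had 827, 965 and 761 normalized counts and FeSO4/PBS mice 2394, 2217 and 2052. After DEX there were 916, 764 and 805 in NaCl mice and 1835, 2492 and 2384 in FeSO4 mice. Each FeSO4 group lay above its NaCl group. In PBS mice the gap was several times the SD of 104.1 in NaCl/PBS and 171 in FeSO4/PBS mice. In DEX mice the SD was 78.2 in NaCl/DEX and 352.4 in FeSO4/DEX mice, which were spread more widely. Fitted LFCs were 1.38 (SE 0.14, edgeR FDR 2e-06) in PBS and 1.43 (SE 0.14, edgeR FDR 2.3e-06) in DEX mice, a 2.61-fold and a 2.7-fold rise, and 1.33 in PBS mice without FeSO4/PBS mouse 1.

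Cisd1, encoding mitoNEET, rose by less. The gene (ENSMUSG00000037710) lies on the minus strand of chromosome 10 from 71163192 to 71180784. Its normalized counts were 1810, 1364 and 1761 in NaCl/PBS and 2553, 2451 and 2322 in FeSO4/PBS mice, and 1579, 1438 and 1650 in NaCl/DEX and 2053, 3105 and 2641 in FeSO4/DEX mice. The FeSO4 mice lay above the NaCl mice in both comparisons. The LFC was 0.57 (SE 0.15, edgeR FDR 0.0048) in PBS mice and 0.74 (SE 0.15, edgeR FDR 0.0011) in DEX mice, and 0.54 in PBS mice without FeSO4/PBS mouse 1. With libraries scaled by their size alone, the LFC in PBS mice was 0.25 and was no longer called (edgeR FDR 0.129).

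Abcb8, the transporter, showed no call in any comparison. The gene (ENSMUSG00000028973) lies on the plus strand of chromosome 5 from 24598639 to 24616950. It had 524, 588 and 531 normalized counts in NaCl/PBS and 744, 473 and 541 in FeSO4/PBS mice, where mouse 1 alone was above all NaCl/PBS mice. In NaCl/DEX mice there were 555, 575 and 449 and in FeSO4/DEX mice 539, 536 and 497. The LFC was 0.1 (95% interval -0.23 to 0.42, edgeR FDR 0.61) in PBS and -0.01 (95% interval -0.34 to 0.32, edgeR FDR 0.98) in DEX mice, so that changes within these intervals were not excluded. Without FeSO4/PBS mouse 1 the LFC in PBS mice was -0.11. Of its mRNA, 3.47% lies in stretches of a repeat that 711 other genes share.

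**Figure D3:**
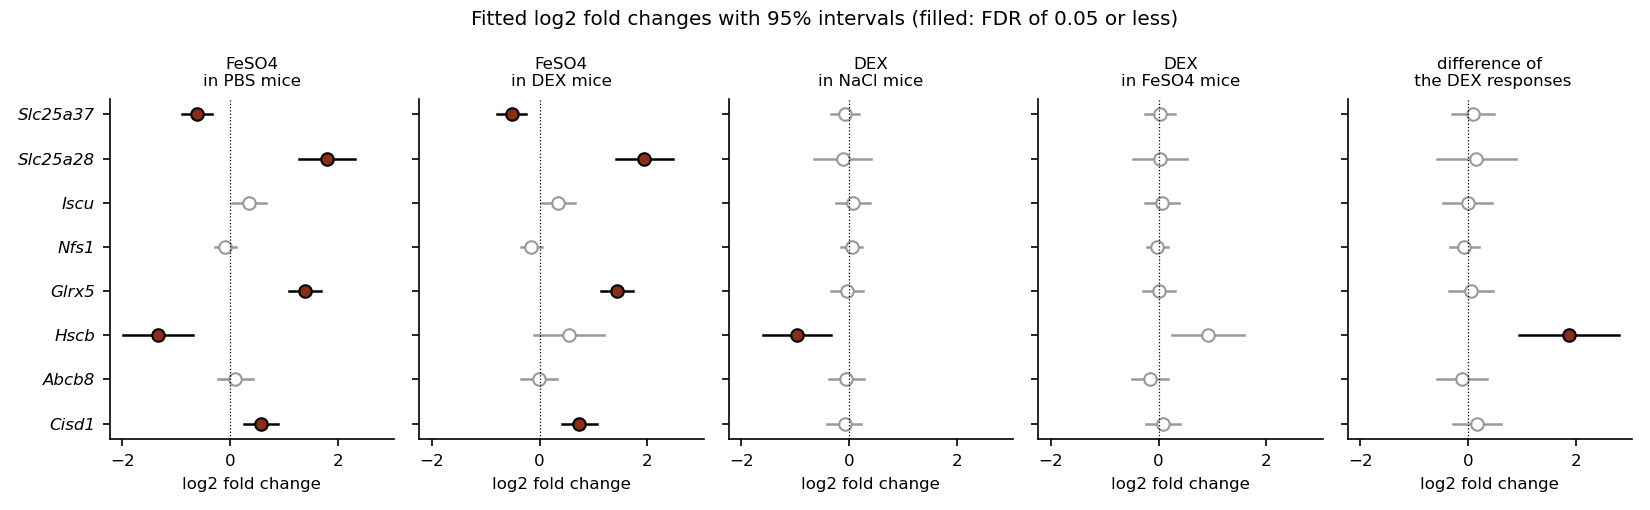
Fitted LFCs (x axis, log2 scale) of the 8 genes (y axis) with 95% intervals in the 4 comparisons and for the difference of the DEX responses, filled where the FDR was 0.05 or less. Slc25a37, Slc25a28, Glrx5 and Cisd1 were called in both FeSO4 comparisons, and Hscb was called after FeSO4 in PBS mice, for DEX in NaCl mice and for the difference of the DEX responses.

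Hscb, the co-chaperone gene, was the member whose response to FeSO4 differed between PBS and DEX mice. The gene (ENSMUSG00000043510) lies on the minus strand of chromosome 5 from 110975724 to 110987689 and was weakly expressed, with 14 to 75 reads per library. Of its mRNA, 6.3% lies in stretches of a repeat that 185 other genes share. It had 53.9, 41.1 and 58.4 normalized counts in NaCl/PBS mice and 25.2, 14.2 and 21.7 in FeSO4/PBS mice, for which the fit gave -1.33 on the log2 scale (SE 0.3, edgeR FDR 0.0021) or 2.51-fold lower. Leaving out FeSO4/PBS mouse 1 gave -1.52. In NaCl/DEX mice there were 20.4, 28.2 and 30.2 and in FeSO4/DEX mice 34.8, 32.6 and 47.6, an LFC of 0.54 (95% interval -0.11 to 1.2, edgeR FDR 0.17). FeSO4 mice were thus all below the NaCl mice when PBS followed and all above them when DEX followed, although the second difference did not pass the test.

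DEX in NaCl mice, NaCl/DEX against NaCl/PBS, changed 1 of the 8 genes. Hscb was lower with an LFC of -0.96 (SE 0.29, edgeR FDR 0.043), and no member was higher, beside 7.15% of all tested genes lower and 6.5% higher. With libraries scaled by their size alone, 25.8% of all called genes were higher in place of 47.6%, the median LFC of all genes was -0.18, and the member count was the same. The Hscb call was lost in 9 of the 12 fits that left out 1 mouse, while it held when NaCl/PBS mouse 2 or FeSO4/PBS mouse 1 or 2 was the one left out. Its edgeR FDR was highest, at 0.159, without NaCl/PBS mouse 3, was 0.15 without NaCl/DEX mouse 1 and 0.132 without NaCl/PBS mouse 1, and was 0.0746 with no filter on low counts. The other 7 genes had LFCs from -0.12 for Slc25a28 to 0.07 for Iscu with FDRs of 0.75 or more.

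In mice given FeSO4, edgeR called none of the 8 genes after DEX, and of all tested genes 0% were called higher and 0% lower. An unadjusted p under 0.05 was found for 1 member, Hscb, and for 900 genes in all, and DESeq2 called 5 genes higher, 5 lower and no member. Hscb had an LFC of 0.91 (SE 0.32, unadjusted p 0.012 and edgeR FDR 0.71), and all 3 FeSO4/DEX mice lay above all 3 FeSO4/PBS mice. The other 7 genes lay between -0.16 for Abcb8 and 0.09 for Cisd1, and the groups overlapped in each. Leaving out FeSO4/PBS mouse 1 gave LFCs of 1.08 for Hscb, 0.32 for Slc25a28 and 0.24 for Iscu, none of which was called.

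The difference of the DEX responses, which equals the difference between the FeSO4 effects in DEX and PBS mice, was called for Hscb. It was 1.87 on the log2 scale (SE 0.43, edgeR FDR 0.019) and 2.02 (edgeR FDR 0.0157) without FeSO4/PBS mouse 1, beside 2.99% of all genes called higher and 3.2% lower in this contrast. With libraries scaled by their size alone, 63.7% of all called genes were higher in place of 48.3%, and Hscb was called. The edgeR FDR was 0.0538 without NaCl/PBS mouse 1, 0.0588 without NaCl/PBS mouse 3, 0.0502 without NaCl/DEX mouse 1 and 0.0631 without FeSO4/DEX mouse 3. For the other 7 genes the difference lay between -0.11 and 0.17 with FDRs of 0.7 or more, and the widest interval, that of Slc25a28, ran from -0.58 to 0.88. Without FeSO4/PBS mouse 1 the difference for Slc25a28 was 0.42 (edgeR FDR 0.429).

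Per length of transcript, the order of the 8 genes differed between NaCl/PBS and FeSO4/PBS mice. In CPM (reads scaled to a common library size) per kb of canonical mRNA, NaCl/PBS mice had 22 ± 1.96 (SD, n = 3) for Iscu, 19.8 ± 2.94 for Cisd1, 18.4 ± 0.63 for Nfs1 and 14.7 ± 1.79 for Glrx5. Slc25a37 followed with 10.7 ± 1.03, Abcb8 with 8.27 ± 0.531, Slc25a28 with 6.8 ± 1.21 and Hscb with 1.25 ± 0.219. Iscu and Cisd1, Cisd1 and Nfs1, and Abcb8 and Slc25a28 overlapped between mice, and the other neighbours did not. In FeSO4/PBS mice the highest level was that of Glrx5 at 38.3 ± 2.95 (SD, n = 3), which did not overlap that of Cisd1 at 29.3 ± 1.39. Iscu followed at 28 ± 6.35, Slc25a28 at 23.6 ± 8.56 and Nfs1 at 17.3 ± 0.696, and each of these overlapped the gene before it. Abcb8 at 8.85 ± 2.13 and Slc25a37 at 6.96 ± 0.713 also overlapped, and Hscb was lowest at 0.499 ± 0.137. Slc25a37 lay above Slc25a28 in all NaCl/PBS mice and below it in all FeSO4/PBS mice. In FeSO4/DEX mice Glrx5 was also highest at 38.5 ± 6.07 but overlapped Cisd1 at 31.2 ± 6.33, and in NaCl/DEX mice Nfs1 at 19 ± 0.636 was above Cisd1 at 18.7 ± 1.29, which it overlapped. The order depends on the length used, since per kb of all annotated exons Cisd1 at 18.4 was above Glrx5 at 11.2 and Iscu at 6.12 in NaCl/PBS mice. It may also depend on the strand setting, which is not known. Reads in the 1135 exonic bases that Slc25a28 shares with BC037704 may have gone uncounted. The order of both mitoferrins per kb in NaCl mice is therefore uncertain.

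**Figure D4:**
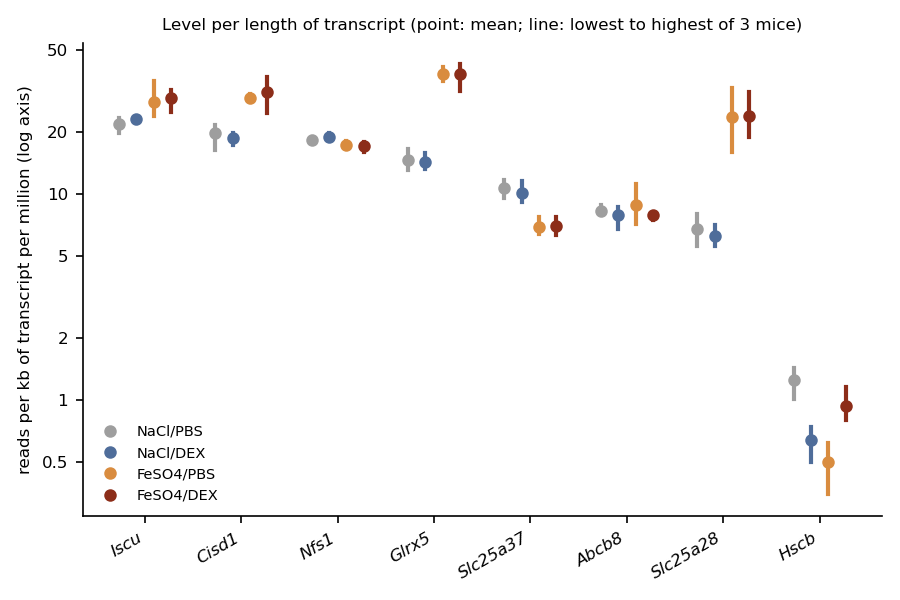
CPM per kb of canonical mRNA (y axis, log scale) of the 8 genes (x axis, ordered by NaCl/PBS), with a point for the mean and a line from the lowest to the highest of 3 mice in each group. Glrx5 lay below Iscu, Cisd1 and Nfs1 in NaCl/PBS mice at 14.7 and was highest in FeSO4/PBS mice at 38.3, and Slc25a28 lay below Slc25a37 in the NaCl groups and above it in the FeSO4 groups.

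Genes whose profiles over the 12 libraries lay closest to those of the called members were found by the root mean square (RMS) difference of log2 CPM, centred on each gene's mean. Closest to Slc25a37 were Pja2 (RMS difference 0.08) and Adam10 (0.09), where the spread of Slc25a37 itself was 0.31. Those closest to Slc25a28 were Ctsl (0.2), which encodes the lysosomal protease cathepsin L, and Coq8b (0.22), a gene of coenzyme Q synthesis, against a spread of 0.96. For Glrx5 they were Grn (0.12), encoding progranulin, and Tomm20 (0.14), a receptor of protein import into mitochondria, against a spread of 0.72. Cisd1 was closest to Nat8f1 (0.11) and Tent2 (0.11), with a spread of 0.36. Hscb had no close profile, with an RMS difference of 0.29 for both Recql4 and Cdkn2c against a spread of 0.54.

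Beyond the 8 genes, 47 other genes of Fe-S cluster assembly, Fe-S enzymes and mitochondrial iron handling were examined, of which 45 were tested. In PBS mice, FeSO4 left 17 of them higher and 5 lower, and in DEX mice 8 higher and 5 lower, of 45 tested. Among all tested genes 27.2% were higher and 27.3% lower in PBS mice, and 22.4% and 20.9% in DEX mice. The median LFC was 0.23 and 0.09, beside -0.02 and 0.01 for all tested genes. Scaled by library size alone, 5 were higher and 12 lower in PBS mice and 5 higher and 14 lower in DEX mice. The balance of directions turned with the scaling for all genes as well. Of all tested genes, 2285 were then higher and 5829 lower in PBS mice, and 2151 and 4146 in DEX mice. The share of higher genes among all called genes was 28.2% and 34.2%, in place of 49.9% and 51.7%. Without FeSO4/PBS mouse 1, 12 were higher and 5 lower in PBS mice, and 9 higher and 9 lower in DEX mice, and the shares of all tested genes in that fit are not given here. Not tested were Fdx2, with 1 to 16 reads per library, and Ftmt, with 0 reads.

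Among 16 tested other genes of mitochondrial Fe-S assembly, 8 were higher and 2 lower in PBS mice, and 5 were higher and 1 lower in DEX mice, to be read beside the 27.2% higher and 27.3% lower of all tested genes in PBS mice and the 22.4% and 20.9% in DEX mice. Lyrm4, which encodes the small partner of the desulfurase, had 111, 108.5 and 124 normalized counts in NaCl/PBS and 324, 173 and 208 in FeSO4/PBS mice, which gave an LFC of 1.04 (SE 0.2, edgeR FDR 0.00062), and 1.19 in DEX mice. Grpel1, a nucleotide exchange factor of the mitochondrial chaperone with which the Hscb protein works, rose from 1751, 1999 and 1667 to 4083, 3331 and 3505, with an LFC of 1.01 (SE 0.11, edgeR FDR 3.7e-06), and 0.75 in DEX mice. Isca1, encoding a late-acting assembly protein, had LFCs of 0.71 and 0.4, and both passed, the second not with library size alone (LFC 0.2, edgeR FDR 0.132). Iba57, another late-acting factor, was lower by LFCs of -0.43 and -0.62, the first of which was not called without NaCl/PBS mouse 1 or 2 or FeSO4/PBS mouse 1 or 2.

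In the cytosolic assembly machinery, 3 of 11 genes were higher and 1 lower in PBS mice, and 2 were higher and 1 lower in DEX mice. The higher counts were near or below the shares of all tested genes, 27.2% in PBS and 22.4% in DEX mice, and the lower counts below theirs, 27.3% and 20.9%. Ciapin1, encoding an electron carrier of that machinery, had 309, 317 and 348 normalized counts in NaCl/PBS and 1100, 671 and 645 in FeSO4/PBS mice, and its LFC was 1.31 (SE 0.21, edgeR FDR 0.00015) in PBS and 0.95 (SE 0.21, edgeR FDR 0.0026) in DEX mice. Its reductase Ndor1 had an LFC of 0.76 in PBS mice, which lost its call without FeSO4/PBS mouse 2 and with library size alone (LFC 0.44, edgeR FDR 0.114). Bola2 had an LFC of 0.43, which lost its call in 8 of 12 fits that left out 1 mouse and with library size alone (LFC 0.11, edgeR FDR 0.574). Ciao1, a subunit of the complex that delivers clusters to target proteins, was lower by LFCs of -0.49 (edgeR FDR 0.0032) and -0.76 (edgeR FDR 0.00019). Mms19, of the same complex, was higher by 0.97 (edgeR FDR 6.9e-05) in DEX mice, and in PBS mice its LFC of 0.28 was not called, or 0.41 (edgeR FDR 0.00782) without FeSO4/PBS mouse 1.

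Of 13 mitochondrial Fe-S enzyme genes, 6 were higher and 1 lower in PBS mice, and 1 was higher and 2 lower in DEX mice, where all tested genes gave 27.2% and 27.3%, and 22.4% and 20.9%. Sdhb, the Fe-S subunit of succinate dehydrogenase, had an LFC of 0.47, which was not called without FeSO4/PBS mouse 1 (LFC 0.31, edgeR FDR 0.0942), without NaCl/PBS mouse 2 or 3, or with library size alone (LFC 0.15, edgeR FDR 0.394). Mocs1, of molybdenum cofactor synthesis, had an LFC of 0.59, which was not called without FeSO4/PBS mouse 1 (LFC 0.27, edgeR FDR 0.0846), without NaCl/PBS mouse 3, or with library size alone (LFC 0.26, edgeR FDR 0.216). In DEX mice its LFC was -0.72 (edgeR FDR 0.0075). Cdk5rap1, encoding an enzyme that modifies mitochondrial tRNA, was lower by LFCs of -1.07 and -0.73, the second of which lost its call in 9 of 12 fits that left out 1 mouse. Lias, the lipoyl synthase, was higher by 0.33 in DEX mice (edgeR FDR 0.039), a call that 9 of those 12 fits and library size alone (LFC 0.13, edgeR FDR 0.392) also lost. Among the 5 tested genes of other mitochondrial iron handling, Abcb10, encoding an inner membrane transporter known from erythroid cells, fell from 473, 532 and 459.6 in NaCl/PBS mice to 112, 207.5 and 212 in FeSO4/PBS mice. Its LFC was -1.47 (SE 0.19, edgeR FDR 1.8e-05) in PBS and -1.42 (SE 0.19, edgeR FDR 3.7e-05) in DEX mice. In PBS mice the LFCs with FeSO4/PBS mouse 1 left out were 0.74 for Lyrm4, 0.93 for Grpel1, 1.03 for Ciapin1 and -1.21 for Abcb10.

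**Figure D5:**
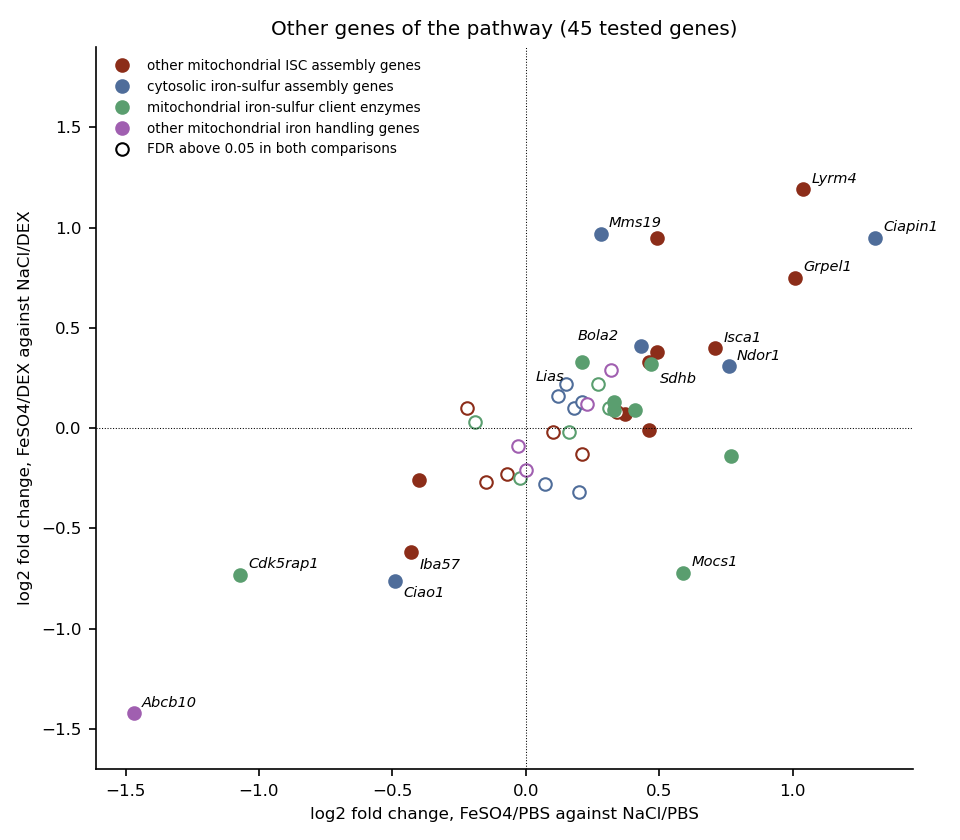
LFC after FeSO4 in PBS mice (x axis) against that in DEX mice (y axis) for the 45 tested pathway genes, coloured by list and filled where the FDR was 0.05 or less in either comparison. Lyrm4, Grpel1 and Ciapin1 lie at the upper right, Abcb10 at the lower left with LFCs of -1.47 and -1.42, and Mocs1 at 0.59 in PBS mice, a call lost without FeSO4/PBS mouse 1, and -0.72 in DEX mice.

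DEX in NaCl mice changed 4 of the 45 pathway genes, 3 higher and 1 lower. Among all tested genes 6.5% were higher and 7.15% lower in this comparison. Mocs1 was higher with an LFC of 1.32 (SE 0.19, edgeR FDR 0.00041), from 1580, 1495 and 1444 normalized counts in NaCl/PBS to 3773, 3625 and 3855 in NaCl/DEX mice. Isca1 was higher by 0.35 (edgeR FDR 0.036), and Mms19 had an LFC of -0.53 (edgeR FDR 0.017). Leaving out 1 mouse ended the Isca1 call in 5 of 12 fits (as did library size alone, with an LFC of 0.2 and an edgeR FDR of 0.217), those without NaCl/PBS mouse 1, 2 or 3 or NaCl/DEX mouse 1 or 3, and the Mms19 call in 4, those without NaCl/PBS mouse 2 or NaCl/DEX mouse 1, 2 or 3. In mice given FeSO4, edgeR and DESeq2 each called 0 of the 45 pathway genes, and 0 had an unadjusted p under 0.05. The difference of the DEX responses was called for 3 of the 45 pathway genes, 1 higher and 2 lower, beside 2.99% of all tested genes higher and 3.2% lower. Mocs1 and Mms19 were among them, with LFCs of -1.31 for Mocs1 and 0.69 for Mms19. Mms19 was not called in 10 of the 12 fits that left out 1 mouse.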

How the data were processed

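RNA of 12 whole livers was purified with Aurum columns and made into TruSeq stranded mRNA libraries, which were sequenced single-end. Reads were checked with FastQC and mapped by the authors with STAR 2.7.10b to mm39 (GRCm39), and the raw counts per gene that STAR gives were deposited by the authors without normalization. STAR counts uniquely mapped reads, so that reads lying wholly within a stretch identical to one elsewhere in the genome go uncounted. Reads that reach beyond such a stretch can still be counted. The strand setting of the counts is not given in the sources used here. All 12 columns were matched to their samples by name.

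Counts were analysed in R 4.3.3 with edgeR 4.0.16. Genes were kept by filterByExpr, libraries were scaled by TMM (factors 0.871 to 1.159), and a mean per group was fitted to all 12 libraries by quasi-likelihood (glmQLFit, glmQLFTest), with a biological coefficient of variation of 0.169. Genes with a Benjamini-Hochberg FDR of 0.05 or less over 13857 genes were called. Normalized counts are on the mean effective library size of 19810818. The pipeline was tested on simulated data. Alternatives were DESeq2 1.42.0, other scalings and filters, a replicate block, smaller fits, an LFC threshold of 1, and leaving out each mouse. The mitoferrin ratio was tested by permuting NaCl and FeSO4 within the PBS and the DEX mice. Gene models and promoter windows came from GENCODE and the genome of the same build. Promoters of another build were not used here.

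All 8 members are named, and from each of 4 pathway lists the 3 called genes with the largest LFC up and down after FeSO4 in PBS mice, and genes of other comparisons where a list had 5 or fewer calls. Some genes that this rule names, and some sequences, are not reported here, but the genes are counted in their lists. For each member called after FeSO4 in PBS mice, the 2 genes closest in profile are named, leaving out other members and Gm and Rik genes. The members and lists were chosen with earlier results of these data known.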

Additional observations from a re-analysis of the deposited data

Results flagged for a closer look

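A DEX response that differed between NaCl and FeSO4 mice was found for Hscb and for the pathway genes Mocs1 and Mms19 by the interaction term of the edgeR fit. For Hscb the difference of the LFCs was 1.87 (FDR 0.019), with an LFC of -0.96 in NaCl and 0.91 in FeSO4 mice. For Mocs1 it was -1.31 (FDR 0.01), with LFCs of 1.32 and 0. For Mms19 it was 0.69 (FDR 0.047), with LFCs of -0.53 and 0.15. Leaving out 1 mouse ended the call of Hscb in 4 of 12 fits and that of Mms19 in 10. No cause of these differences was tested.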

How the results depend on the processing

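Of 410 recomputed counts and ratios under the alternatives, 361 stayed within 1.5 times the reported count or kept direction and side of the threshold, and 49 moved. Of 792 recomputed values of single members, 762 stayed called or stayed not called, 21 lost the call, 9 gained it and 0 reversed the direction of a call. Of 1584 values of single pathway genes the numbers were 1479, 97, 8 and 0. LFCs that were not called could change sign, as for Abcb8 after FeSO4 in PBS mice, with 0.1 and, without FeSO4/PBS mouse 1, -0.11.

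With library size alone, pathway genes called higher and lower after FeSO4 numbered 5 and 12 in PBS mice and 5 and 14 in DEX mice. Members called lower in DEX mice numbered 2, and pathway genes lower with DEX in NaCl mice 2. Of all tested genes, 2285 were then higher and 5829 lower in PBS mice, and 2151 and 4146 in DEX mice. With DEX in NaCl mice, 618 of all tested genes were higher and 1776 lower. With an LFC beyond 1 also required, pathway genes higher and lower numbered 3 and 2 in PBS mice, 1 and 1 in DEX mice, and 1 and 0 with DEX in NaCl mice, members called lower 1, 0 and 0 in these comparisons, and pathway genes in the difference of the DEX responses 0 higher and 1 lower. No pathway gene was higher in that difference (0) with DESeq2 size factors. Members called lower with DEX in NaCl mice numbered 0 with no filter on low counts. The shares of all tested genes with an LFC beyond 1 are not given here. The counts at that threshold are therefore not to be read as results about the lists.

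Leaving out 1 mouse gave 3 to 4 members higher and 2 lower after FeSO4 in PBS mice and 3 to 4 higher and 1 lower in DEX mice. Pathway genes then numbered 12 to 18 higher and 4 to 5 lower in PBS mice, and 6 to 9 higher and 4 to 9 lower in DEX mice. With DEX in NaCl mice there were 0 to 1 members and 0 to 1 pathway genes lower, and 2 to 4 pathway genes higher. In the difference of the DEX responses there were 0 to 1 members higher, 0 to 1 pathway genes higher and 1 to 2 lower. The shares of all tested genes in these fits are not given here, so that the counts show only how the calls depended on single mice. The log2 mitoferrin ratio differed by -2.56 to -2.25.

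Deviations in 12 pairs of same-numbered libraries correlated from -0.075 to 0.13, with 2 over 0.1, so that no strong pairing by replicate number was seen. Differently numbered libraries were not compared, and a weaker pairing or batch by replicate number is not excluded. A replicate block left 0 members lower with DEX in NaCl mice (Hscb, FDR 0.0548) and ended the calls of Bola2 after FeSO4 in PBS mice and Cdk5rap1 in DEX mice.

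Hscb had 14 to 75 reads per library, so that its values carry more counting error than those of the other members. Where not stated above, the cause of a change was not tested.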
